A study of Homo sapiens with 4 samples.

Results

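Lipid droplet coat and lipolysis genes were examined in a profile of H3K27ac, an acetylated form of histone H3 that marks active promoters and enhancers. The set was 6 genes chosen by name, with earlier results of these data known. They were the perilipins PLIN2, PLIN3, PLIN4 and PLIN5, together with HILPDA and PNPLA2. Every line that the authors' deposited table assigns to one of these genes was taken, which gave 14 lines and 13 distinct regions of the 91107 distinct regions in all. The profile is chromatin immunoprecipitation sequencing of A375, an established human melanoma cell line, with 2 libraries of cells exposed to 1 mM octanoate, a fatty acid of medium chain length, and 2 of cells exposed to its vehicle, isopropanol, both for 48 hours. All 4 libraries came from this 1 cell line, and the labels do not say whether libraries of a group came from separate cultures, so the p-values measure only the spread between these libraries, which may be technical. The authors' deposited table gives 1 comparison of the 2 groups with no value per library, so the depth of each library is unknown and each error below is the standard error of the authors' model. Which group is the numerator of the fold change is not stated in the authors' deposited table, so changes are called positive or negative and not gains or losses under octanoate.

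As a check on the labelled cell type, regions at the starts of melanoma genes were sought. Among melanocyte and melanoma markers 4 of 8 had a region at the start in the authors' deposited table (SOX10, MITF, PMEL and S100B, at mean levels from 55.2 to 774 in the authors' normalized units), and MLANA, TYR, DCT and TYRP1 had none. All 4 neural crest or mesenchymal markers (SOX9, AXL, NGFR and VIM) had one in the authors' deposited table, at levels from 39.4 (SOX9) to 516 (AXL). Of the epithelial markers 1 of 3 had one (EPCAM, level 50.5, above that of SOX9), and of the blood markers 0 of 3.

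Cells store triglycerides and sterol esters in lipid droplets, whose surface is covered by perilipins that govern the access of lipases. Triglyceride breakdown begins with the adipose triglyceride lipase ATGL, encoded by PNPLA2, and is restrained by the small protein HILPDA, which is known as a target of the hypoxia response and of fatty acids. PLIN2, a coat protein of droplets in most cell types, and PLIN4 are known targets of PPARs, nuclear receptors activated by fatty acids.

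The promoters of the genes whose regions differ most in kind are shown first. Each is the reference sequence from 250 bases before the RefSeq start to 50 bases from the start on (build GRCh38.p14, minus strand in all 3, printed 5′ to 3′). PLIN2 (chr9:19127443-19127742) lies inside one of the widest start regions, PLIN4 (chr19:4518437-4518736) inside the start region with the largest fold change of the set, and PLIN5 (chr19:4535175-4535474) in no region at all. Capitals mark matches to the E-box CACGTG, to the hypoxia response core ACGTG, which lies within the E-box as well, or to the nuclear receptor half-site AGGTCA, all searched on both strands.
PLIN2: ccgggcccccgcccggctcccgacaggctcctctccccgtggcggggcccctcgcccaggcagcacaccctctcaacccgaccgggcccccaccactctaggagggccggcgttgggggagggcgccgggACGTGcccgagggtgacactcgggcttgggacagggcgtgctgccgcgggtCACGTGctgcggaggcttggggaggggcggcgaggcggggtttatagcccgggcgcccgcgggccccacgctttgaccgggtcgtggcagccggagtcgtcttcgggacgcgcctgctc
PLIN4: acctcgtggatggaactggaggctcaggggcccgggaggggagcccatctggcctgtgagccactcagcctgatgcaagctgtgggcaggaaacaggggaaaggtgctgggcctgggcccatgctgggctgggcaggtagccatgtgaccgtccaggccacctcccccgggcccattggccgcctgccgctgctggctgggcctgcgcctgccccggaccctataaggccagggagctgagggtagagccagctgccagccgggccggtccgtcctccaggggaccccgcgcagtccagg
PLIN5: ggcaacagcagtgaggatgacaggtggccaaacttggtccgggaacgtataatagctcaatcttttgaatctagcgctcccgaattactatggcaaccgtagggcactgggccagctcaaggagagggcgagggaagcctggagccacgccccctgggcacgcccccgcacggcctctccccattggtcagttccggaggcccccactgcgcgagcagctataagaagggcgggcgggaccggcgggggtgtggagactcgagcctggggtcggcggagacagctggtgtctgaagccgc

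The PLIN2 window held 1 E-box, which began 69 bases before the start, and 3 matches to ACGTG, of which 2 were the strands of that E-box and the third began 120 bases before the start. The windows of PLIN3, PLIN4 and PLIN5 held none of the 3 motifs, and that of PNPLA2 held 1 match to AGGTCA, which began 239 bases before the start. Of 35116 promoter windows of the same length in the RefSeq table, 7.26% held CACGTG, 21.4% ACGTG and 13.8% AGGTCA. A match is a description of the letters and does not show binding. Nor does the lack of an exact match in these windows show that binding is absent. Promoter sequences were matched for 5 of the 6 genes, and HILPDA had no entry.

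The regions of the 6 genes were all positive in the authors' deposited table, and 2 of the 13 passed an adjusted p of 0.05: one over the PLIN4 start that is listed for PLIN5 too, and one upstream of PLIN2. A positive sign is common in the authors' deposited table, at 73.7% of all regions, 98.1% of tested start regions and 83.2% of tested distal regions, and nothing is read from the signs of the 6 genes. The authors' deposited table gives an adjusted p for 10 of the 13 regions, so 2 of 10 were called, both positive. The background over the 36436 regions with an adjusted p was 1.65% called positive and 0.0192% called negative. This background was not matched for level or width. In level the called PLIN2 region lay at percentile 99.6 of tested distal regions, and the PLIN4 start region at 81.9 of tested start regions. By kind, 1 of 5 start regions and 1 of 5 distal regions with an adjusted p were called, against 0.86% and 1.95% called positive over all tested start and distal regions in the authors' deposited table. An unadjusted p under 0.05 with a positive fold change was given by the authors' deposited table for 5 of the 10, against 17.9% of all regions with an adjusted p. They were 3 of the 5 at starts (background 19.2%) and 2 of the 5 distal ones (background 17.5%) in the authors' deposited table. Those 5 are not independent observations, since 3 are neighbours at PLIN2 and all share the same libraries. The 3 regions without an adjusted p were small flanks of PLIN2 with mean levels of 7.25, 12.4 and 15.7 in the authors' deposited table, which computed none for any region with a level up to 18.4.

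The shift common to the whole table sets the scale for these values. The authors' deposited table has a median log2 fold change of 0.32, a ratio of 1.25, over all regions with an adjusted p, and it was 0.35 at gene starts and 0.31 elsewhere. The median of the 5 start regions of the set was 0.61 in the authors' deposited table, and that of the 8 distal regions was 0.49. Of these 8 distal regions 7 were neighbours at PLIN2 and 1 belonged to PLIN4, so their median mostly describes 1 locus. The 5 distal regions with an adjusted p had a median of 0.50, beside 0.31 for all such regions. Over all distal regions, with or without an adjusted p, the median was 0.255. Without PLIN2 the median of the 4 other start regions was 0.48 in the authors' deposited table. A common scaling difference between the groups and a general change of acetylation cannot be told apart in a table without values per library. After the median of 0.32 was subtracted from each region of the authors' deposited table, 0 of the 10 regions passed, where 0.0521% of all tested regions passed above the median.

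**Figure D1:**
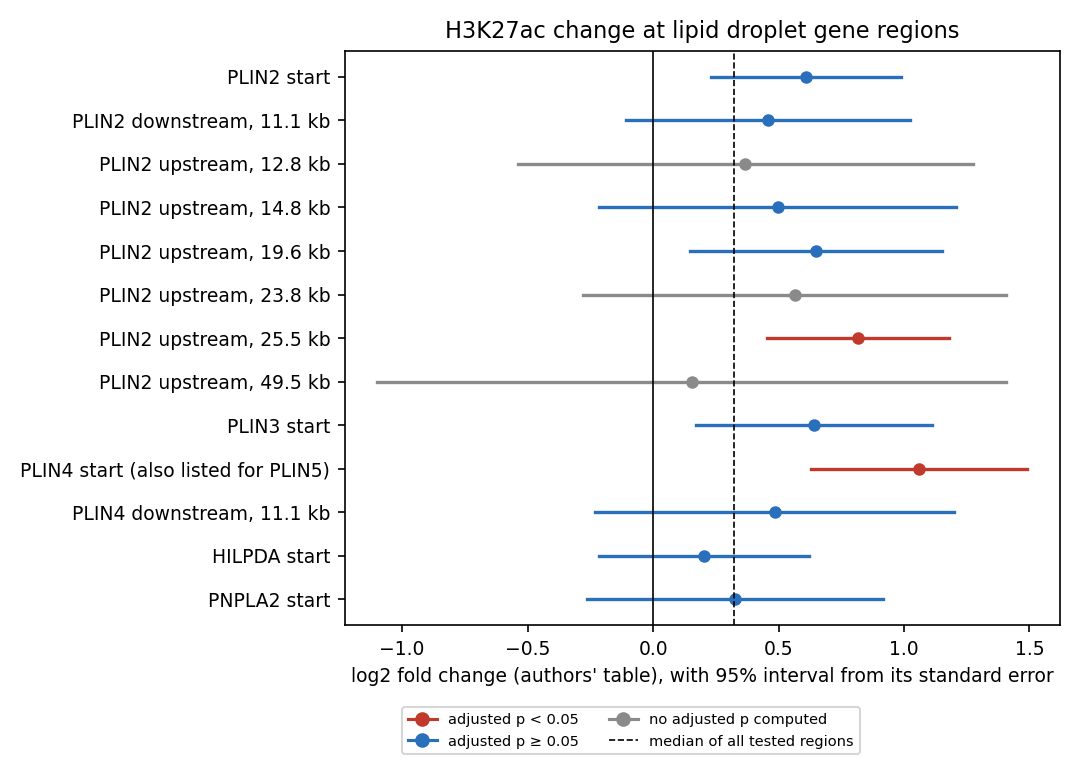
Log2 fold changes of the 13 regions in the authors' deposited table (points) with 95% intervals from its standard errors (bars), grouped by gene and ordered by distance to the start, where the solid line is 0 and the dashed line the median of all tested regions (0.32). All points lie right of 0, as do 73.7% of all regions, and the intervals of 5 regions do not reach 0: the PLIN2, PLIN3 and PLIN4 starts and the PLIN2 regions 19.6 and 25.5 kb upstream.

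PLIN2 had the most regions of the 6 genes, 8 that together covered 53.8 kb of a 63.2 kb stretch. Among them were the 2 regions with the highest levels of the set. Its start region (chromosome 9, 19116985 to 19139678) was 22.7 kb wide and reached 12.2 kb upstream and 10.5 kb into the gene. The mean level of this region in the authors' deposited table was 825, or 36.4 per kb, and of the 9996 tested regions at starts 29 were wider. The authors' deposited table gave it a log2 fold change of 0.61 ± 0.19 (standard error; 95% interval 0.23 to 0.99), a ratio of 1.53, and the adjusted p of 0.0675 did not pass.

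The called PLIN2 region lay upstream and was about as wide as the one over the start. It covered 22.1 kb (chromosome 9, 19153068 to 19175133), began 25.5 kb from the PLIN2 start and overlapped no gene in the RefSeq table. In the authors' deposited table it had a mean level of 469, or 21.3 per kb, and 40 of 26440 tested distal regions were wider. By the authors' deposited table its log2 fold change was 0.82 ± 0.18 (standard error; 95% interval 0.45 to 1.18), a ratio of 1.76, with an adjusted p of 0.00471. It exceeded the start region by 0.21 on the log2 scale in the authors' deposited table, and the 2 intervals overlapped. That difference was not tested, because the table gives no value per library from which its error could be taken. After the median was subtracted the change of the upstream region was 0.49, with an adjusted p of 0.484 computed from the authors' deposited table.

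Between these 2 wide regions, in a gap of 13.4 kb, lay 4 smaller ones. The largest of them, 19.6 kb upstream and 3.55 kb wide, had a log2 fold change of 0.65 ± 0.26 in the authors' deposited table, an unadjusted p of 0.0114 and an adjusted one of 0.163. A region 14.8 kb upstream had 0.50 ± 0.36 (adjusted p 0.416) in the authors' deposited table. The other two, at 12.8 and 23.8 kb, carried no adjusted p and had 0.37 ± 0.46 and 0.56 ± 0.43 in the authors' deposited table. All 4 were positive, but only the interval of the one at 19.6 kb lay above 0.

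The outermost regions assigned to PLIN2 lay on either side of these. One inside the gene, 11.1 kb downstream of the start (chromosome 9, 19114252 to 19116468), was positive by 0.46 ± 0.29 on the log2 scale at a mean level of 44.8 (adjusted p 0.357) in the authors' deposited table. The farthest, 49.5 kb upstream and 0.31 kb wide, had 0.15 ± 0.64 at a level of 7.25 in the authors' deposited table, an interval from -1.10 to 1.41 that holds little information. The 2 wide regions held 88.0% of the level summed over the 8 PLIN2 regions in the authors' deposited table.

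Regions of the neighbouring genes gave the local context of PLIN2. Within 100 kb of the PLIN2 regions, 7 regions of other genes had an adjusted p in the authors' deposited table, with a median log2 fold change of 0.15 and a range from -0.14 to 0.38. The 5 PLIN2 regions with an adjusted p ran from 0.46 to 0.82 in the authors' deposited table, with a median of 0.61. HAUS6, the next gene on the downstream side and a subunit of the augmin complex of the spindle, had 0.08 ± 0.21 at its start in the authors' deposited table. DENND4C, the next gene upstream and a regulator of RAB GTPases, had 0.31 ± 0.22 at its start in the authors' deposited table. The 2 sets of tested values did not overlap, which describes these regions and was not tested. How often the regions of other genes stand clear of their neighbours was not computed, so PLIN2 cannot be called unusual in this. The separation also held only for tested regions. Untested PLIN2 regions 12.8 and 49.5 kb upstream, at 0.37 and 0.15, lay inside the range of the tested neighbours. The untested one at 23.8 kb, at 0.56, lay above it. The 15 untested neighbours had values from -0.90 to 0.38 in the authors' deposited table.

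**Figure D2:**
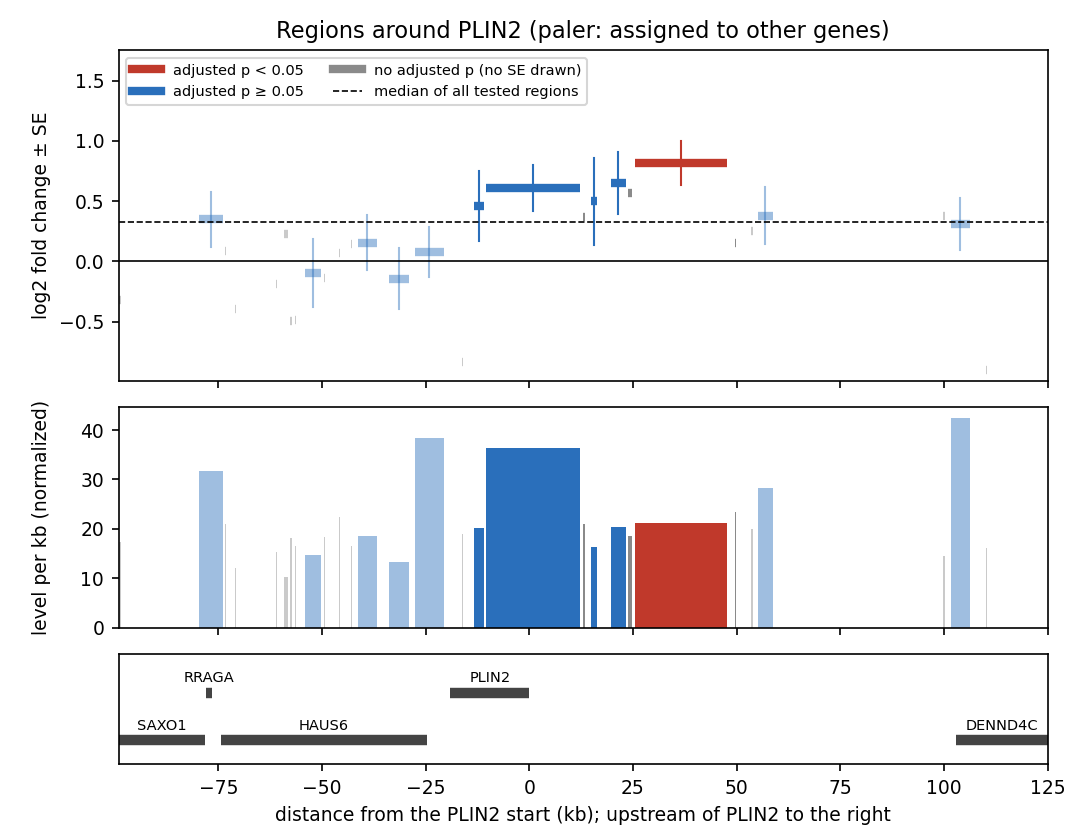
Regions around PLIN2 by distance from its start in kb, with the log2 fold change ± standard error in the top panel, the mean level per kb in the middle and protein-coding genes at the bottom, where dark bars are PLIN2 regions and paler ones belong to other genes. The PLIN2 regions with an adjusted p lie between 0.46 and 0.82, and those of the neighbours between -0.14 and 0.38. The untested PLIN2 regions 12.8, 23.8 and 49.5 kb upstream lie at 0.37, 0.56 and 0.15.

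PLIN3, also called TIP47, is a widely expressed perilipin that moves from the cytosol to newly formed droplets. It had 1 region, over its start (chromosome 19, 4866296 to 4872709), 6.41 kb wide, of which 5.04 kb lay upstream. The mean level of this region in the authors' deposited table was 160, or 24.9 per kb. For this region the authors' deposited table listed a log2 fold change of 0.64 ± 0.24 (standard error; 95% interval 0.17 to 1.11), a ratio of 1.56, with an unadjusted p of 0.00741 and an adjusted one of 0.137, which did not pass. PLIN3 had no distal region in the authors' deposited table, and its region lay at percentile 90.4 of tested start regions by fold change.

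PLIN4, a perilipin of small nascent droplets best known from adipocytes, had the largest fold change of the set. Its start region (chromosome 19, 4516563 to 4524001) was 7.44 kb wide, with 5.52 kb upstream of the PLIN4 start. In the authors' deposited table this region had a mean level of 159, or 21.3 per kb, and a log2 fold change of 1.06 ± 0.22 (standard error; 95% interval 0.63 to 1.49). That is a ratio of 2.09 with an interval from 1.55 to 2.81, and the adjusted p in the authors' deposited table was 0.00156. By p-value the region ranked 32 of the 36436 tested in the authors' deposited table, and 73 of 9996 tested start regions had a larger fold change. At starts, 0.86% of tested regions were called positive in the authors' deposited table. After the median was subtracted the change of the PLIN4 start region was 0.74, with an adjusted p of 0.186 computed from the authors' deposited table.

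A second PLIN4 region lay inside the gene, 11.1 kb downstream of the start (chromosome 19, 4506192 to 4507379) and 1.19 kb wide. Its level per kb in the authors' deposited table was 22.7, close to that of the start region, but the log2 fold change was 0.49 ± 0.37 (95% interval -0.23 to 1.20; adjusted p 0.428). The intervals of the 2 PLIN4 regions overlapped, and their difference was not tested.

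PLIN5, a perilipin of oxidative tissues that brings droplets next to mitochondria, had no region at its own start. The only region listed for PLIN5 in the authors' deposited table was the PLIN4 start region, whose edge lay 11.2 kb downstream of the PLIN5 start. PLIN4 and PLIN5 lie on the minus strand with 4044 bases between them, and the region filled that gap and 1471 bases of the far end of PLIN5. The value of 1.06 is therefore 1 measurement listed for a pair of genes and was counted once. The nearest region to the PLIN5 start was 11.2 kb away, and no level is given for that start.

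**Figure D3:**
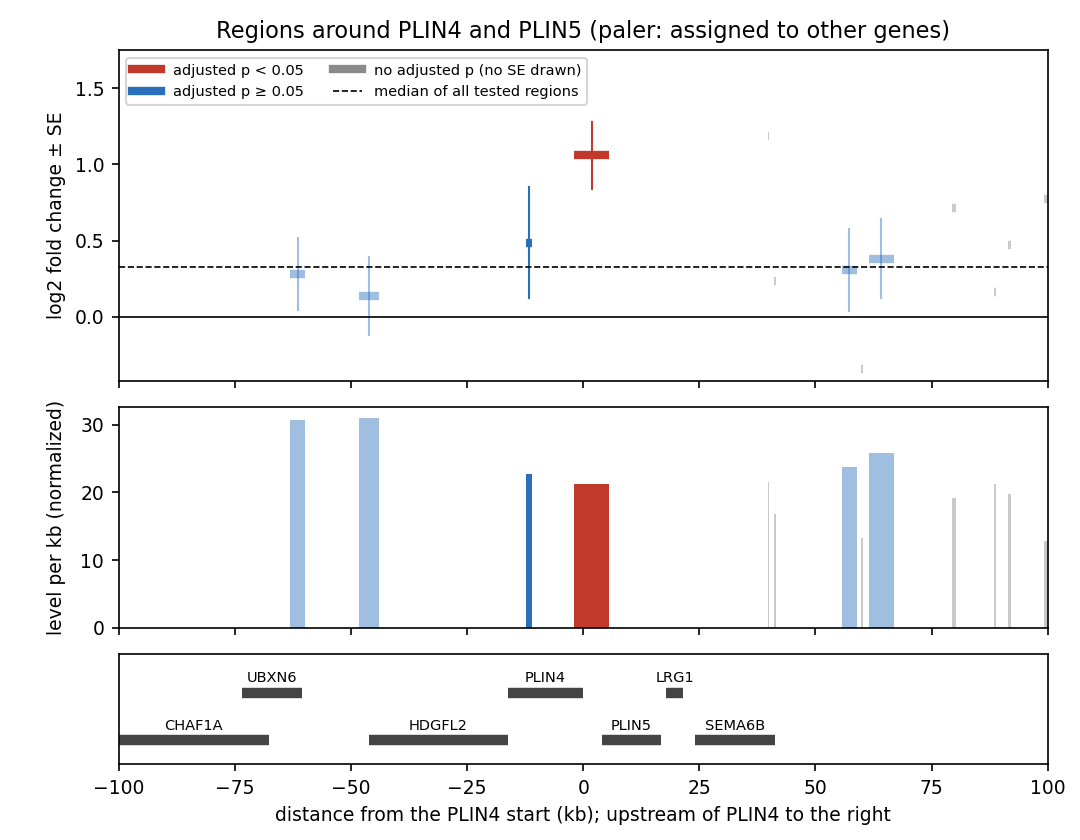
Regions around PLIN4 and PLIN5 by distance from the PLIN4 start in kb, with the log2 fold change ± standard error in the top panel, the mean level per kb in the middle and protein-coding genes at the bottom, where paler bars belong to other genes. The called region (1.06) spans the PLIN4 start and the far end of PLIN5, and no bar covers the PLIN5 start.

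Chromosome 19 carries PLIN3, PLIN4 and PLIN5 and stood higher as a whole. Its 1572 regions with an adjusted p had a median log2 fold change of 0.41 in the authors' deposited table, against 0.32 over the genome, and 2.54% of them were called. Chromosome 9, which carries PLIN2, had a median of 0.31 in the authors' deposited table. Of its tested regions 2.13% were called, against 1.67% over the genome. The part of chromosome 19 in the values of PLIN3 and PLIN4 was not tested. Within 100 kb of the PLIN4 and PLIN5 regions, 4 tested regions of other genes had log2 fold changes from 0.13 to 0.38 in the authors' deposited table, with 0 called and 0 at an unadjusted p under 0.05. The 9 untested regions there had values from -0.34 to 1.19 in the authors' deposited table. Around PLIN3 the 8 tested neighbours ran from 0.08 to 0.66 in the authors' deposited table, a range that holds the PLIN3 value of 0.64, with 0 called and 2 at an unadjusted p under 0.05.

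HILPDA and PNPLA2, the inhibitor and the lipase, had the smallest start values of the set. The HILPDA region (chromosome 7, 128454682 to 128459845) was 5.16 kb wide and covered the whole of this short gene of 2541 bases. It had a mean level of 126, or 24.4 per kb, and a log2 fold change of 0.20 ± 0.21 (standard error; 95% interval -0.22 to 0.62) in the authors' deposited table, and its adjusted p was 0.558. That is a ratio of 1.15 with an interval from 0.861 to 1.54, so a change of 1.54-fold or more lies outside the interval given by the authors' deposited table. HILPDA lay at percentile 18.7 of tested start regions by fold change, and below the median of all tested regions by 0.12 (centred value -0.12). The HILPDA region also overlaps the pseudogene EFCAB3P1, so its signal cannot be assigned to either alone.

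The PNPLA2 region (chromosome 11, 818879 to 821116) was 2.24 kb wide, the narrowest at a start in the set. The RefSeq start of PNPLA2 lay 35 bases inside its upstream edge, so that nearly all of it covered the gene body, and 84 of the 300 bases of the promoter window fell within it. Its level in the authors' deposited table was 54.3, or 24.3 per kb, and its log2 fold change 0.33 ± 0.30 (standard error; 95% interval -0.26 to 0.92), with an adjusted p of 0.505. After the median of all tested regions was subtracted the value was 0.0039 on the log2 scale. HILPDA and PNPLA2 had no distal region in the authors' deposited table.

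The start regions of the 5 genes that had one thus fell in the order PLIN4 (1.06), PLIN3 (0.64), PLIN2 (0.61), PNPLA2 (0.33) and HILPDA (0.20) by the log2 fold changes of the authors' deposited table. The 95% intervals of each pair of neighbours in this order overlapped, and of all pairs only PLIN4 (from 0.63) and HILPDA (to 0.62) did not, by a narrow margin. These differences were not tested. By level per kb they lay close together in the authors' deposited table, from 21.3 at PLIN4 to 24.9 at PLIN3, apart from PLIN2 with 36.4. Start regions over all genes had a median of 25.8 per kb among those tested in the authors' deposited table.

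**Figure D4:**
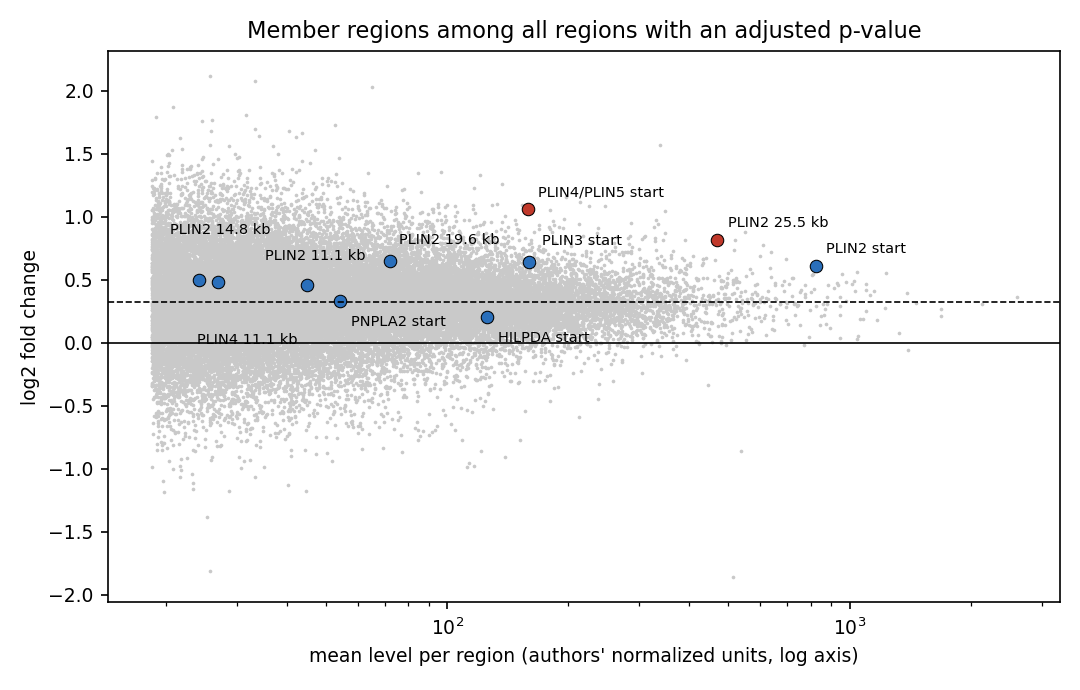
Log2 fold change against mean level (log axis) for all 36436 regions with an adjusted p in the authors' deposited table (grey), with the 10 member regions marked in red where called and blue otherwise, and the dashed line at the median of 0.32. PLIN2 start and the PLIN2 region at 25.5 kb lie at the far right with levels of 825 and 469, and PLIN4/PLIN5 start is the highest member at 1.06.

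Other genes of droplet coating, lipolysis and triglyceride synthesis were read in the same way. Of 33 listed genes 30 had a region in the authors' deposited table, GPAT4 and LDAF1 under older symbols, and CIDEB, G0S2 and FITM1 had none. Their 230 regions, 104 with an adjusted p, had a median log2 fold change of 0.26 in the authors' deposited table, and that of the 104 was 0.27, against 0.32 for all tested regions. The authors' deposited table called 1 of the 104 positive and 0 negative, or 0.962% against a background of 1.67%. That call lay 4895 bases from the start of AGPAT2, an acyltransferase of phosphatidic acid synthesis, with 1.11 ± 0.32 and an adjusted p of 0.0397 in the authors' deposited table.

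At the starts of 25 of these genes, all tested, the median was 0.44 in the authors' deposited table, with 0 called and 8 at an unadjusted p under 0.05 (background at starts 19.2%). All 8 belonged to the 15 genes of triglyceride synthesis and droplet formation, whose start regions had a median of 0.58 in the authors' deposited table. The highest were LDAF1, a partner of seipin at droplet formation sites, with 0.81 ± 0.38, and the last-step acyltransferases DGAT2 with 0.77 ± 0.35 and DGAT1 with 0.66 ± 0.24 in the authors' deposited table. Start regions of the 5 other lipolysis genes had a median of 0.36, and those of 5 coat genes and droplet enzymes 0.30, in the authors' deposited table. The lowest values at starts were those of MGLL, the monoacylglycerol lipase, with 0.06 ± 0.25, of LIPA, the lysosomal acid lipase, with 0.23 ± 0.23, and of CIDEC, a droplet fusion protein, with 0.23 ± 0.31 in the authors' deposited table. The differences between these lists were not tested.

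**Figure D5:**
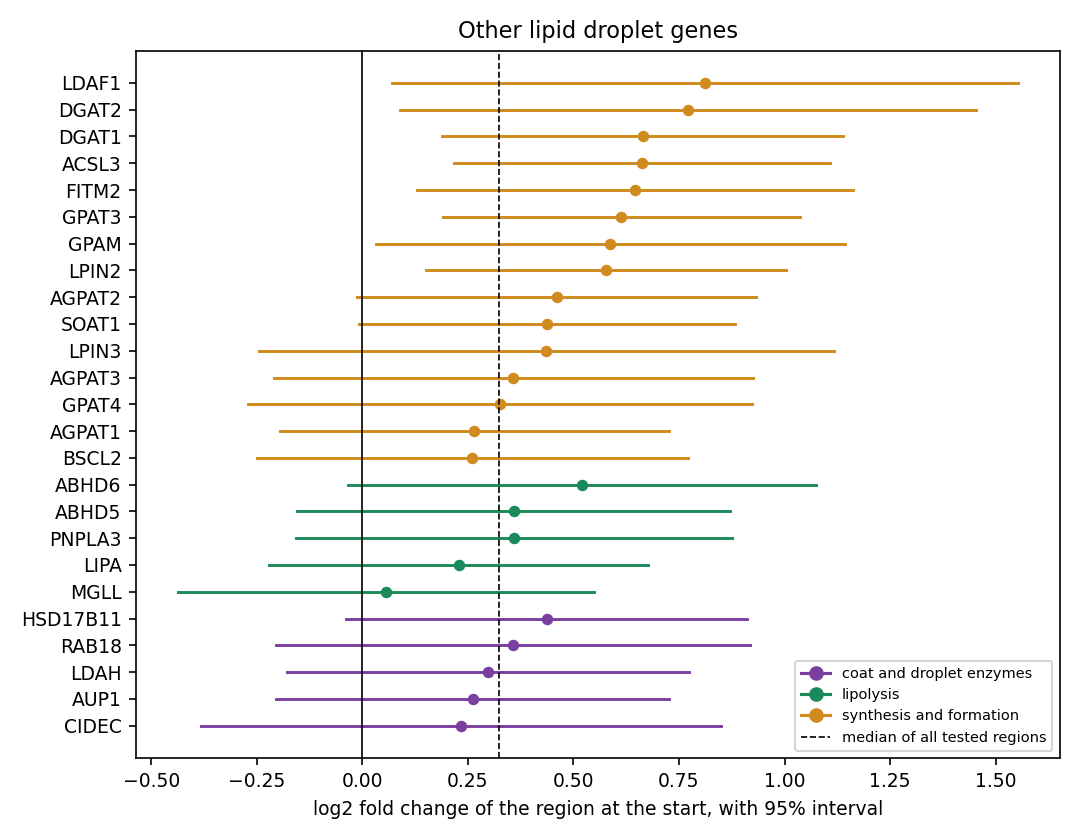
Log2 fold change (points) with 95% intervals (bars) from the authors' deposited table at the starts of 25 other lipid droplet genes, coloured by list, where the dashed line is the median of all tested regions (0.32). Values run from 0.06 at MGLL to 0.81 at LDAF1, and none was called.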

How the data were processed

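H3K27ac was profiled in A375 cells by chromatin immunoprecipitation sequencing. Per the submitters' processing notes, tools included Bowtie2, Picard, MACS2, featureCounts, DESeq2 and bedtools 2.29.1 on hg38; other versions, settings and annotation are not given in the sources used here. The deposited table holds 1 comparison. The mean level is a signal the authors normalized, the log2 fold change and the error of each region are as the authors computed them, the statistic is the authors' score (their quotient), and p-values are as deposited, with 1 where no adjusted p-value was computed. Distances, per the file headers, run to the assigned gene. The 9 member lines with a distance other than 0, of PLIN2, PLIN4 and PLIN5, led to starts within 85 bases of RefSeq's (GRCh38.p14). Lines at distance 0 give no start to compare, so PLIN3, HILPDA and PNPLA2 were not checked. Of 62104 lines compared in this way, 82.0% led to a start within 1 kb. Coordinates are as the table gives them.

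Lines repeating a region were merged. Calls are deposited adjusted p-values under 0.05. Intervals of 95% use the authors' standard error. In centring, the median of tested regions was subtracted, and normal p-values were adjusted by Benjamini-Hochberg. Scripts used pandas 2.3.3 and scipy 1.17.1, and of their steps the centring was tested on simulated data. Libraries were grouped by labelled treatment. Member genes are all named; of other genes, those called and the 3 highest and 3 lowest at starts. The members and lists were chosen with earlier results of these data known. Per-sample columns not used numbered 0.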

Additional observations from a re-analysis of the deposited data

How the results depend on the processing

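The 2 calls of the set in the authors' deposited table stayed 2 at an adjusted p-value under 0.01 and under adjustment over all distinct regions (adjusted p-values 0.0039 for the PLIN4 start and 0.0118 for PLIN2 upstream), and became 0 after centring, since centring takes the genome-wide median off every region. With adjustment over all 91107 distinct regions, 0.271% of them were called positive. The share of all regions called at 0.01 was not computed. The single call among the other lipid droplet genes at AGPAT2 became 0 in each of these 3 settings: at 0.01, over all distinct regions (adjusted p 0.0975) and after centring (adjusted p 0.598). Of the 13 member regions 11 kept their sign after centring, while HILPDA turned to -0.12 and the PLIN2 region 49.5 kb upstream to -0.17, neither called as deposited or centred. The median at starts ran from 0.29 (centred) to 0.63 (without HILPDA or PNPLA2), and the distal one from 0.17 (centred) to 0.62 (weighted mean).

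No paired analysis was possible because values of single libraries are not among the columns used here, and leaving out each library was not run for the same reason. Levels under 18.4 carry no adjusted p-value, which limits 3 of the PLIN2 flanks.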

Other observations

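Around HILPDA the 5 tested regions of other genes within 100 kb had a median log2 fold change of 0.49 in the authors' deposited table, above the HILPDA value of 0.20, with 0 called and 2 at an unadjusted p-value under 0.05. Around PNPLA2 the 11 tested neighbours had a median of 0.35 in the authors' deposited table, beside 0.33 for PNPLA2, with 0 called and 1 at an unadjusted p-value under 0.05.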
